A study of Homo sapiens and Mus musculus with 56 samples.

Results

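The HGF and MET system was followed as 10 genes: the ligand HGF, its receptor MET, the proteases HGFAC, ST14 and PLAU, the protease inhibitors SPINT1 and SPINT2, the urokinase receptor PLAUR, the membrane protease MMP14 and the adaptor GAB1. They were chosen by name for their roles, with earlier results of these data known, and all 10 were measured on both array platforms, among 18417 named genes on the human arrays and 19938 on the mouse arrays. The study asked how glioblastoma models respond to V-4084, a small molecule that the labels describe as a selective inhibitor of the MET kinase. It profiled 5 human glioblastoma lines, U87M2, U118, SF295, DBM2 and U251M2, on 28 human arrays and 28 mouse arrays.

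Per the labels, the human arrays hold RNA of the lines treated in culture for 7 days with dimethyl sulfoxide as vehicle or with V-4084 from a 0.01 M stock in that solvent. The mouse arrays hold RNA of flank tumours, grown from the same lines under the skin of nude mice. Those mice, which lack mature T cells, received V-4084 at 30 mg/kg for 7 days or the vehicle, methylcellulose with Tween 80. Each group had 3 arrays, except that SF295 had 2 in both human groups, SF295 vehicle had 2 on mouse arrays and U251M2 V-4084 had 2 on mouse arrays. The labels do not say that repeats were separate cultures or animals, so the p-values below measure the spread between these arrays, which may be technical.

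Several arrays stood apart from their labels or their groups. The 3 human arrays titled as DBM2 with V-4084 name SF295 in another label field. They were grouped by title, and on each platform the nearest array of all 28 arrays belonged to the same line by title. For these 3 arrays the nearest could be another of the 3, so that check cannot decide between the labels. Their mean HGF was 5.30, against 5.37 in DBM2 vehicle and 10.03 in SF295 vehicle. Their mean SPINT1 was 8.40, against 8.38 and 6.72 in the same groups. The human V-4084 arrays DBM2 repeat 2, U251M2 repeat 1 and SF295 repeat 2 had a narrower range of values (SD of the values on an array 1.75, 1.90 and 1.90) than the widest array (2.10). Human and mouse arrays with the same line, treatment and repeat number also shared a signal that the labels do not describe: over 27 such pairs, the within-group deviations of 8 skeletal muscle markers on mouse arrays and 7 on human arrays gave Pearson r = 0.973 (p = 8e-05, adjusted p = 0.00096 over 12 relations) and Spearman rho = 0.971 (p = 9e-05, adjusted p = 0.00108, permutation tests within groups, two-sided). Leaving out the 2 most distant pairs gave r = 0.961. The same measure for the members themselves ran from -0.253 for HGF to 0.473 for ST14, and none had an adjusted p under 0.452; r for ST14 was 0.046 without its 2 farthest pairs. The platforms are therefore not treated as independent here. Whether the human arrays hold RNA of cultured cells, as labelled, or of tumours was not tested, so they are called human arrays below and not cultures. Whether human RNA bound mouse probes, or mouse RNA human probes, was not tested.

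The labelled cell type was checked against 9 astroglial and glioma markers. On human vehicle arrays NES and VIM lay above the median of all genes (7.12 on the log2 scale) in each line, GFAP lay above it in U251M2 only, and OLIG2, AQP4 and ALDH1L1 lay above it in none. SOX2 lay above it in SF295, DBM2 and U251M2, S100B in SF295 and U251M2, and SLC1A3 in U87M2, U118 and U251M2.

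As background, HGF is secreted as an inactive single chain and becomes able to activate its receptor only after a serine protease cuts it. HGFAC, a plasma protease, and matriptase, encoded by ST14, are efficient activators, and SPINT1 and SPINT2 encode Kunitz-type inhibitors that restrain them. Urokinase, encoded by PLAU, has also been reported to cut HGF and acts at the cell surface through its receptor PLAUR, while MMP14 is a membrane protease of the matrix that also sheds surface proteins. The cut ligand makes MET phosphorylate itself, and the scaffold GAB1 then couples MET to its downstream pathways. In glioblastoma, a line that makes both ligand and receptor can stimulate itself.

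Promoter sequence was looked up for the members in RefSeq (GRCh38.p14), where 7 of 10 were found; ST14, SPINT2 and GAB1 were not. The 250 bases before the annotated start are shown 5′ to 3′ for HGF, which varied most between lines, and for MET, PLAU, PLAUR and MMP14, the members with an entry that V-4084 changed in U87M2. Capitals mark matches, on either strand, to the AP-1 motif TGACTCA or the GC box GGGCGG; the E-box CACGTG was searched too and was in none of them.
HGF, chr7:81770048-81770297, minus strand: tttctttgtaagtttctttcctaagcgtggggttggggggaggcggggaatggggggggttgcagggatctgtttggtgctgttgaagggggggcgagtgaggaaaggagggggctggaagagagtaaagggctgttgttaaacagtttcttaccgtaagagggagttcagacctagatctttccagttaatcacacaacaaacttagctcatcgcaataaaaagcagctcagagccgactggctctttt
MET, chr7:116671946-116672195, plus strand: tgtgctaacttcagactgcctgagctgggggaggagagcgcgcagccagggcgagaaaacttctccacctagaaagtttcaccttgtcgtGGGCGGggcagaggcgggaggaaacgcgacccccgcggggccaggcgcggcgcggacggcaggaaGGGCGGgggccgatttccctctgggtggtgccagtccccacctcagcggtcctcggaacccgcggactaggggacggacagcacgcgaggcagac
PLAU, chr10:73910882-73911131, plus strand: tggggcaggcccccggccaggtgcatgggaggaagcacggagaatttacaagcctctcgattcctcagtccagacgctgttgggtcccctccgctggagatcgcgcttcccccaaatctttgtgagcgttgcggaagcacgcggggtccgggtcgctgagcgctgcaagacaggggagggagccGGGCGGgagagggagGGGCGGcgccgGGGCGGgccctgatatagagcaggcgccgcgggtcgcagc
PLAUR, chr19:43670170-43670419, minus strand: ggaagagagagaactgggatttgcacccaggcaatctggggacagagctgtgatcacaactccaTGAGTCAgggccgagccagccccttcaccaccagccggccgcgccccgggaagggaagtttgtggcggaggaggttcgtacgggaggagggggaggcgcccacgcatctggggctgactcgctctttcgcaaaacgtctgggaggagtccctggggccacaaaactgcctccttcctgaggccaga
MMP14, chr14:22836335-22836584, plus strand: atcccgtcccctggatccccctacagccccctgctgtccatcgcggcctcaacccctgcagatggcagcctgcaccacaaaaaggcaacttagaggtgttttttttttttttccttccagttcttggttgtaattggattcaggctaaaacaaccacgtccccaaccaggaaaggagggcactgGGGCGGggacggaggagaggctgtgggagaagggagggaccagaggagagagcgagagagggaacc
The PLAUR window held 1 AP-1 match, a motif found in 4.2% of 35116 promoter windows of this length. GC boxes, found in 42.6% of windows, numbered 2 for MET, 3 for PLAU and 1 for MMP14, and the HGF window held no match to any of the motifs. A second annotated PLAU start, with its window at chr10:73910360-73910609, held none either. The E-box occurred in 6.34% of windows. A match is a run of letters only, and binding of a factor was not measured.

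HGF separated the lines into high and low expressers. All values below are the deposited log2 intensities, on which a difference of 1 is a 2-fold difference, and they are compared within a gene only, since probes of different genes are not on one scale. On human vehicle arrays HGF read 11.50, 11.39 and 11.48 in U87M2, 10.05, 10.39 and 10.14 in U118, and 10.14 and 9.91 in SF295. It read 5.41, 5.39 and 5.31 in DBM2 and 5.19, 5.06 and 5.17 in U251M2. No array of the first 3 lines came near one of the last 2, and the lines spanned 6.32 log2 units between U87M2 and U251M2. The low values lie well below the platform median of 7.12, and whether they exceed background was not tested, so the span may be a lower bound and no fold is given. The means ± SD were 11.46 ± 0.06 in U87M2, 10.20 ± 0.18 in U118, 10.03 ± 0.17 in SF295 (n = 2), 5.37 ± 0.06 in DBM2 and 5.14 ± 0.07 in U251M2 (n = 3 unless given). The lines differed (limma F test, adjusted p = 6.17e-25), and of 10 pairs of lines 8 differed; the neighbours U118 and SF295 (adjusted p = 0.412) and DBM2 and U251M2 (adjusted p = 0.170) were not told apart.

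V-4084 was not followed by a called change of HGF in any line on human arrays. With V-4084, HGF read 11.40, 11.39 and 11.49 in U87M2, inside or beside the range of its vehicle arrays, a difference of -0.03 (SE 0.12, limma adjusted p = 0.919). In the other lines the HGF difference ran from -0.14 in U118 to 0.17 in SF295. On the average over the 5 lines the HGF difference was 0.00 (SE 0.06, limma adjusted p = 0.965).

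MET was high in 4 lines and lower in U251M2. Human vehicle arrays read 10.45, 10.70 and 10.64 in U87M2, 10.64, 10.74 and 10.68 in U118, 10.81 and 10.96 in SF295, 10.41, 10.54 and 10.34 in DBM2, and 8.81, 8.71 and 8.79 in U251M2. U251M2 lay below every array of the other lines, and the highest and lowest line means, SF295 and U251M2, were 4.31-fold apart. The lines differed (limma F test, adjusted p = 4.32e-11), and the 4 called pairs of 10 were those with U251M2; the other 4 lines, in the order SF295, U118, U87M2 and DBM2, were not told apart from one another. U251M2 thus had low HGF and the lowest MET of the lines, though its MET mean of 8.77 lay above the platform median of 7.12. DBM2 combined low HGF with MET near that of the HGF-high lines.

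**Figure D1:**
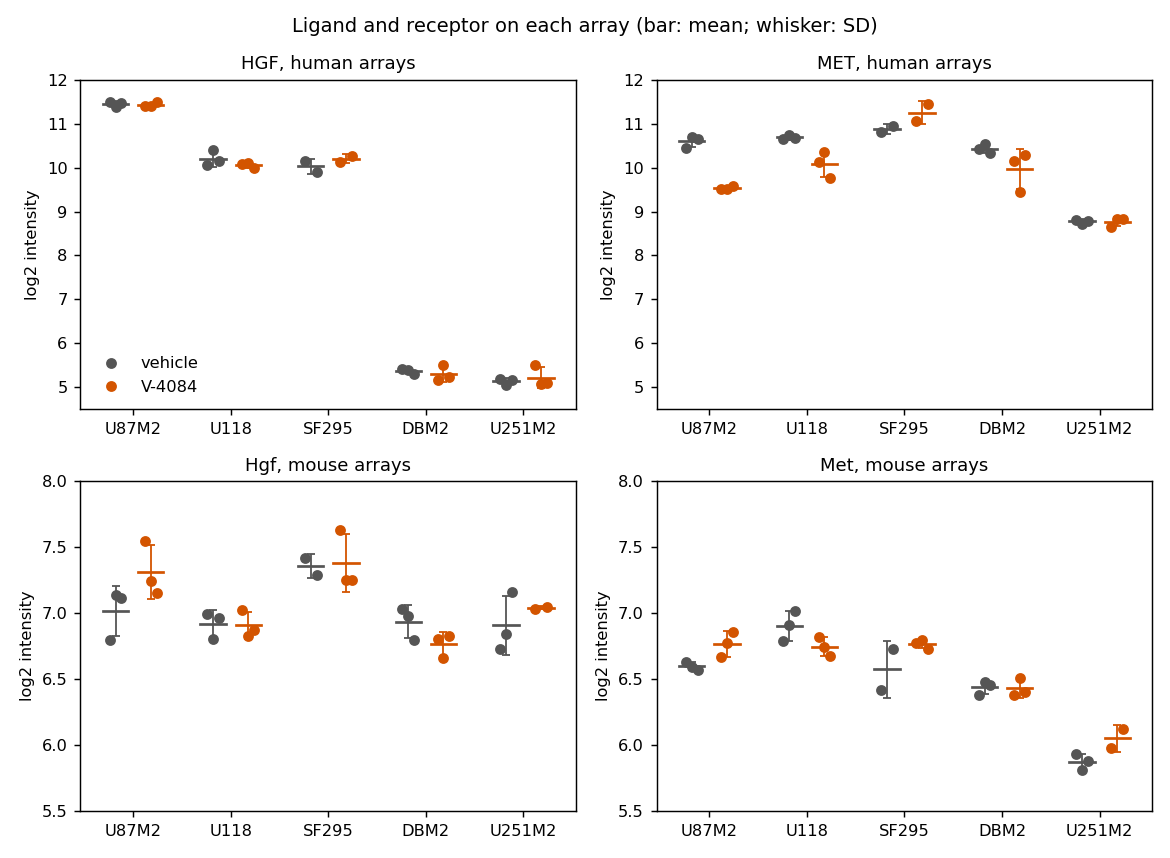
Ligand and receptor on each array, in log2 intensity, for the 5 lines with vehicle (grey) and V-4084 (orange); points are arrays, bars are means and whiskers are SDs, and the mouse panels have a narrower axis. Human HGF splits the lines into means of 10.03 and above and means of 5.37 and below, and human MET in U87M2 falls from 10.60 to 9.54 with V-4084.

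Human MET fell in U87M2 with V-4084. The 3 treated arrays read 9.52, 9.52 and 9.57, all below the lowest vehicle array at 10.45. The difference was -1.06 (SE 0.16, 2.08-fold lower, limma adjusted p = 3.13e-05). In U118 the treated arrays read 10.13, 10.35 and 9.76, all below the vehicle arrays, a difference of -0.61 (SE 0.16) that was not called (limma adjusted p = 0.0767), though 8 of 37 alternative settings called it; leaving out 1 U118 array at a time moved it between -0.75 and -0.45. In DBM2 they read 10.16, 9.45 and 10.30, again below vehicle, with a difference of -0.46 (SE 0.16, limma adjusted p = 0.115); the lowest is the narrow-range array, repeat 2. Without it the difference was -0.20 (limma adjusted p = 0.781), and without repeat 3 it was -0.62 (limma adjusted p = 0.0140). SF295 went the other way, at 11.06 and 11.44 against 10.81 and 10.96, a difference of 0.37 (SE 0.20, limma adjusted p = 0.605). U251M2 differed by -0.01 (SE 0.16, limma adjusted p = 0.990).

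Averaged over the 5 lines, MET fell by 0.35 (SE 0.08, limma adjusted p = 0.00454), with a negative difference in 4 lines. Without U87M2 the average was -0.18 (limma adjusted p = 0.295), in a setting where 0 of all 18417 genes were called. The difference in U87M2 was itself 0.88 more negative than the mean of the other lines (value -0.88, SE 0.18, limma adjusted p = 0.00172).

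On mouse arrays Hgf was nearly level across the lines, and Met varied over a narrower range than human MET. Mouse vehicle means of Hgf spanned 0.45 log2 units, from 6.91 in U251M2 tumours to 7.36 in SF295 tumours, where the arrays read 7.42 and 7.29. The differences between lines passed the test narrowly (limma F test, adjusted p = 0.0460), and 19 of 35 alternatives lost the call, with adjusted p up to 0.312. The tumours of the line with the highest human HGF, U87M2, read 6.80, 7.14 and 7.11. With V-4084 they read 7.55, 7.24 and 7.15, just above the vehicle arrays, but the difference of 0.30 (SE 0.12) was not called (limma adjusted p = 0.238). Mouse Met ran from 5.87 ± 0.06 (SD, n = 3) in U251M2 tumours to 6.90 ± 0.11 (SD, n = 3) in U118 tumours, and 7 of 10 pairs of lines differed (limma F test over lines, adjusted p = 1.99e-08). In U87M2 tumours Met read 6.63, 6.59 and 6.57 with vehicle and 6.67, 6.77 and 6.86 with V-4084, a difference of 0.17 (SE 0.08, limma adjusted p = 0.352) where the human arrays had fallen by 1.06. U251M2 was thus the lowest line for the receptor on both platforms; over the 10 group means, which share lines and treatments, Pearson r between human MET and mouse Met was 0.757 as a description.

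The dedicated activators and their inhibitors were dim and flat on human arrays, with 1 exception. HGFAC means under vehicle ran from 6.88 to 7.03, ST14 from 6.55 to 6.80 and SPINT2 from 6.26 to 6.52, all below the platform median. None of these 3 genes differed between lines (limma F test, adjusted p = 0.830, 0.652 and 0.354) or in any of 10 pairs. SPINT1 was the exception. It read 8.30, 8.36 and 8.48 in DBM2, above the median, against 6.51 to 7.02 on the vehicle arrays of the other lines. No array of another line reached those of DBM2, which lay above the lowest line, U87M2, by 1.75 log2 units (limma F test over lines, adjusted p = 6.32e-13; 0.0525 without DBM2).

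V-4084 moved none of the 4 genes past the threshold in any line. The widest differences on human arrays were 0.42 for SPINT2 in U118 (SE 0.12, limma adjusted p = 0.108), where the treated arrays at 6.88, 6.47 and 6.74 all lay above the vehicle arrays at 6.29, 6.29 and 6.25, and 0.29 for HGFAC in DBM2 (SE 0.12, limma adjusted p = 0.145). Leaving out the 3 narrow-range arrays called SPINT2 in U118, as did leaving out repeat 2 of the U118 V-4084 arrays and weighting arrays by quality. In DBM2, SPINT1 stayed at 8.50, 8.13 and 8.57, across the range of its vehicle arrays. On mouse arrays the vehicle means ran from 6.19 to 6.48 for Hgfac, 6.44 to 6.63 for St14, 6.54 to 6.81 for Spint1 and 6.38 to 6.82 for Spint2, and the lines were not told apart by the F test for any of them. Human SPINT1 in DBM2 had no counterpart on mouse arrays, where Spint1 in DBM2 tumours (6.73, 6.83 and 6.83) overlapped that in U87M2 tumours.

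Urokinase and its receptor were present in every line and changed with V-4084 in U87M2. PLAU under vehicle was lowest in U87M2, at 9.0, 8.94 and 8.77, and U118, at 9.16, 9.31 and 9.30. It was higher in SF295 (10.06 and 9.98), DBM2 (10.32, 10.27 and 10.35) and U251M2 (10.60, 10.16 and 9.91). The 2 lower lines did not overlap the 3 higher ones, and the 6 called pairs of 10 were those between the sets (limma F test, adjusted p = 1.83e-09). With V-4084, U87M2 read 8.05, 8.30 and 8.24, all below vehicle. PLAU there fell by 0.71 (SE 0.14, 1.63-fold lower, limma adjusted p = 0.000948). In the other lines the difference ran from -0.01 in DBM2 to 0.32 in U118, with no call, and the U87M2 difference was below their mean by 0.91 (value -0.91, SE 0.16, limma adjusted p = 0.000357).

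PLAUR, which holds urokinase at the cell surface, showed the widest V-4084 difference among the 10 members. Under vehicle it was highest in U87M2, at 9.53, 9.36 and 9.65, next to SF295 at 9.35 and 9.16 and U251M2 at 9.23, 8.85 and 9.09. U118 and DBM2 were lower, with means of 8.52 and 8.51. With V-4084 the U87M2 arrays read 8.14, 8.15 and 8.24, more than a log2 unit below vehicle and below every vehicle array of any line. The difference was -1.34 (SE 0.15, 2.53-fold lower, limma adjusted p = 3.46e-07). The other lines ran from -0.26 in SF295 to 0.18 in U251M2 with no call, and the U87M2 difference was below their mean by 1.30 (value -1.30, SE 0.17, limma adjusted p = 6.17e-06). The SF295 value rests on 1 array: with V-4084 it read 9.40 and 8.59, and the lower of these is a narrow-range array; leaving out the narrow-range array gave 0.15 (limma adjusted p = 1), and leaving out the other gave -0.66 (limma adjusted p = 0.0179), each time with 1 treated array assumed to vary like the other groups. Averaged over lines PLAUR fell by 0.30 (SE 0.07, limma adjusted p = 0.00913), but the average without U87M2 was -0.04 (limma adjusted p = 0.802).

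MMP14 rose in U87M2. It read 9.80, 9.49 and 9.38 with vehicle and 10.06, 10.15 and 10.17 with V-4084, without overlap. The difference was 0.57 (SE 0.14, 1.49-fold higher, limma adjusted p = 0.00582), and it lost the call without repeat 3 of the vehicle arrays (0.48, limma adjusted p = 0.0533). Over the 5 lines MMP14 rose by 0.22 (SE 0.07, limma adjusted p = 0.0321), with 12 of 38 alternatives losing the call, among them the average without U87M2 (0.14, limma adjusted p = 0.320). The rise in U87M2 was not shown to differ from the other lines (difference 0.44, SE 0.16, limma adjusted p = 0.101). Under vehicle MMP14 was highest in SF295 (10.77 and 10.83) and lowest in DBM2 (9.12, 9.46 and 9.30), and 7 of 10 pairs of lines differed (limma F test, adjusted p = 7.47e-09).

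GAB1, the adaptor, rose in U87M2. Its arrays read 8.15, 8.28 and 8.30 with vehicle and 9.04, 9.03 and 9.15 with V-4084. The difference was 0.83 (SE 0.15, 1.77-fold higher, limma adjusted p = 0.000214), and every treated array lay above every vehicle array. In 3 of the other lines GAB1 differed the opposite way, by -0.22 in U118, -0.38 in DBM2 and -0.31 in U251M2, and by 0.15 in SF295, none called. U87M2 exceeded the mean of these lines by 1.02 (SE 0.17, limma adjusted p = 0.000126). The human array has 2 probe sets for GAB1, and they disagreed: the brighter, used here, gave 0.83 and the other 0.18 (SE 0.12, limma adjusted p = 0.422 over all probe sets), and their mean gave 0.50 (limma adjusted p = 0.00118). Under vehicle GAB1 was highest in U251M2 (9.08, 8.80 and 9.21) and lowest in DBM2 (7.49, 7.51 and 7.14), and 8 of 10 pairs of lines differed (limma F test, adjusted p = 4.90e-09).

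**Figure D2:**
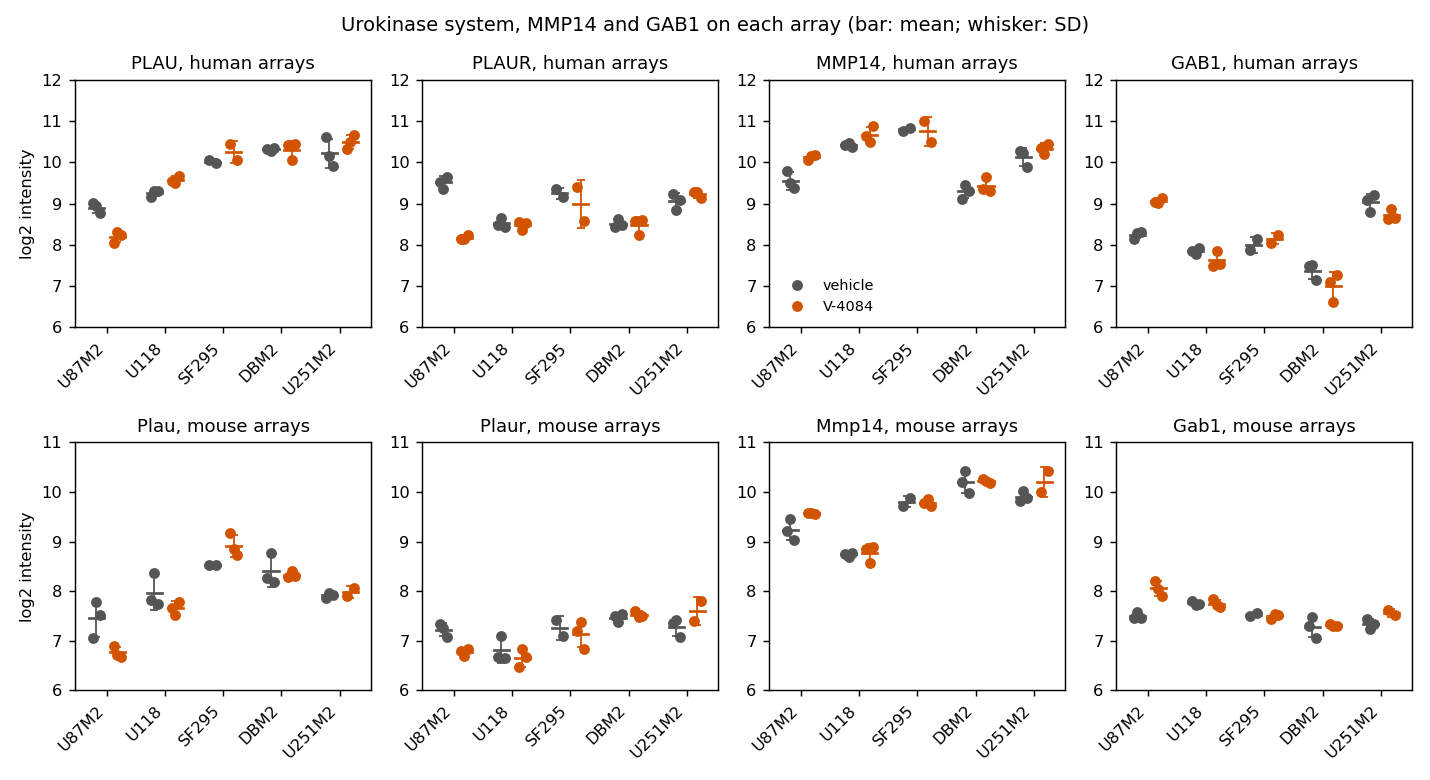
PLAU, PLAUR, MMP14 and GAB1 on each human array (top) and their mouse counterparts on each mouse array (bottom), in log2 intensity, by line, with vehicle (grey) and V-4084 (orange); points are arrays, bars means and whiskers SDs. In U87M2 the human treated arrays are clear of the vehicle arrays for all 4 genes, with PLAUR moving from a mean of 9.52 to 8.18. The share of all genes with such a separation was not counted.

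On mouse arrays of U87M2 tumours, Gab1 rose and Plau fell. Gab1 read 7.45, 7.57 and 7.45 with vehicle and 8.21, 8.05 and 7.90 with V-4084. The difference was 0.56 (SE 0.09, 1.48-fold higher, limma adjusted p = 0.000631), and it exceeded the mean of the other lines by 0.51 (SE 0.10, limma adjusted p = 0.0106; 0.43 and adjusted p = 0.0697 without repeat 1 of the V-4084 arrays). Plau read 7.05, 7.78 and 7.53 with vehicle and 6.90, 6.71 and 6.68 with V-4084. All treated arrays were below the vehicle arrays, and the difference was -0.69 (SE 0.17, 1.61-fold lower, limma adjusted p = 0.0167). That call was lost without any 1 of 4 arrays of the comparison, namely vehicle repeat 2 (-0.52, limma adjusted p = 0.104), vehicle repeat 3 (-0.65, 0.0746), V-4084 repeat 2 (-0.67, 0.0713) or V-4084 repeat 3 (-0.65, 0.0534).

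Plaur and Mmp14 in the same tumours had treated and vehicle arrays that did not overlap, but neither passed the threshold. Plaur read 7.34, 7.26 and 7.08 with vehicle and 6.78, 6.69 and 6.83 with V-4084, a difference of -0.46 (SE 0.14, limma adjusted p = 0.0712), and 7 of 36 alternatives called it. Mmp14 read 9.22, 9.45 and 9.03 with vehicle and 9.58, 9.57 and 9.55 with V-4084, a difference of 0.33 (SE 0.12, limma adjusted p = 0.129). Side by side, the human and mouse differences in U87M2 were -0.71 and -0.69 for urokinase, -1.34 and -0.46 for its receptor, 0.57 and 0.33 for MMP14, 0.83 and 0.56 for GAB1, and -1.06 and 0.17 for MET.

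Line by line under vehicle, the 2 platforms ordered some members alike and others not. PLAU was lowest in U87M2 on both, and r over the 5 vehicle means was 0.751 (0.824 over all 10 group means). MMP14 was lowest in DBM2 on human arrays but highest there on mouse arrays (10.21, 10.43 and 9.99), where U118 tumours were lowest (8.76, 8.69 and 8.78), and r over the 5 vehicle means was -0.296. For GAB1 that r was -0.126 and for PLAUR 0.212, against 0.410 and 0.458 over all 10 group means, V-4084 groups included. These coefficients are descriptions over groups that share lines and treatments.

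**Figure D3:**
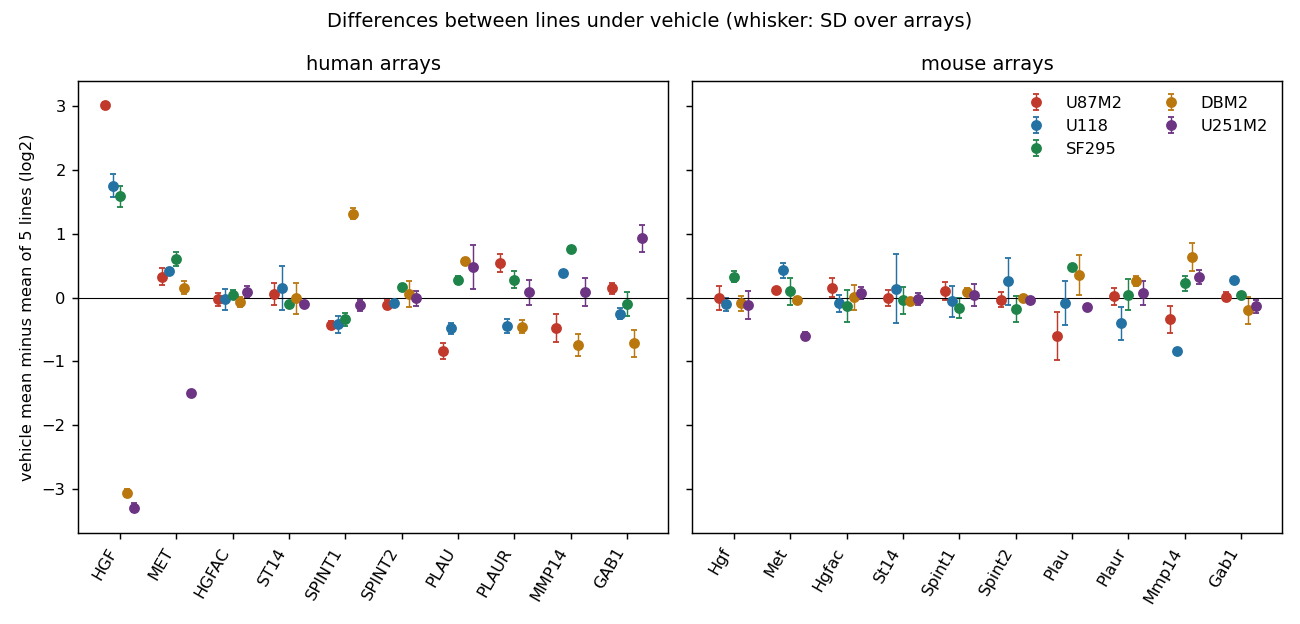
Vehicle mean of each line minus the mean of the 5 lines, in log2 units, for each member on human arrays (left) and mouse arrays (right), with SDs over arrays as whiskers. Human HGF spans 6.32 units, SPINT1 stands out in DBM2, and mouse members span at most 1.47 units.

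Counted together, on human arrays 5 of 10 members were called in U87M2, 2 higher and 3 lower, against 15.0% of all genes tested. In U118 none of 10 was called by limma (background 0.755%; 3 had an unadjusted p under 0.05). SF295, DBM2 and U251M2 likewise had no member called, where the background was 0% in each, with 0, 3 and 1 members at an unadjusted p under 0.05. These backgrounds count adjusted calls and are not the measure for unadjusted p. Of all 18417 genes, 1868 in U118 and 1581 in SF295 had an unadjusted p under 0.05, as did 4920 in DBM2 and 1110 in U251M2. In U87M2 all treated arrays lay above all vehicle arrays for 2 members and below them for 3. Without a call, these numbers were 3 and 1 in U118 and 2 and 2 in SF295. They were 1 and 1 in DBM2 and 1 and 0 in U251M2. The share of all genes that separate in this way was not counted, so separation alone is a description. SF295 had 2 arrays in each group, where separation comes more easily than with 3. Its counts are therefore not set against those of the other lines. The average over lines called 3 of 10 (background 11.6%). Setting U87M2 directly against the other lines called 4 of 10 (background 8.78%), and the F test for differences between lines in the V-4084 effect called the same 4 genes, MET, PLAU, PLAUR and GAB1 (background 5.53%; adjusted p = 0.00286, 0.00603, 0.000150 and 0.00128). With the U87M2 line left out, that F test called none, and the share of all genes it called in that setting was not counted.

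On mouse arrays 2 of 10 members were called in U87M2 tumours, against 3.72% of all genes. None was called by limma in U118 (background 0.0100%), SF295 (0.0100%), DBM2 (0%) or U251M2 (0.0401%) tumours, where 0, 2, 0 and 2 had an unadjusted p under 0.05. Of all 19938 genes, 1355, 1341, 458 and 2670 had an unadjusted p under 0.05 in these lines, in the same order. The average over lines called none (background 0.0702%). There 2 members, Mmp14 and Gab1, had an unadjusted p under 0.05, as did 1923 of all 19938 genes. U87M2 against the other lines called 1, Gab1 (background 1.63%), and the F test for differences in effect called none (background 0.341%); the smallest adjusted p was 0.0990, for Gab1. Differences between lines under vehicle were called for 7 of 10 members on human arrays (background 58.4%) and 6 of 10 on mouse arrays (background 54.3%), shares close to those of all genes. Over 10 pairs of lines for each of the 10 members, 45 comparisons were called on human arrays (background 30.9%) and 33 on mouse arrays (background 21.7%). The pairs of a gene share lines, so they are not independent.

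**Figure D4:**
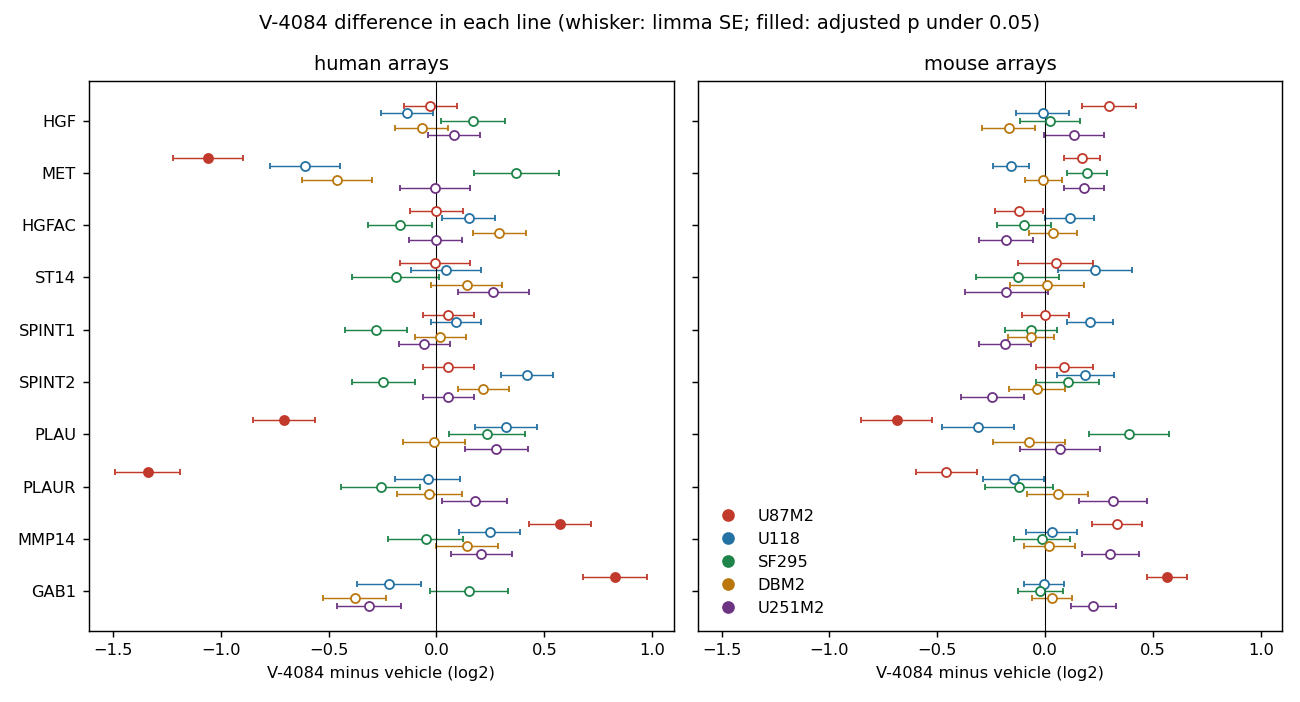
V-4084 minus vehicle, in log2 units, for each member and line on human arrays (left) and mouse arrays (right, mouse gene of the same name); whiskers are limma SEs and filled points have an adjusted p under 0.05. The filled points are all U87M2, 5 on human and 2 on mouse arrays.

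Other genes of the pathway were read from lists chosen with earlier results of these data known, so their counts are descriptions. Over the 7 lists, 23 of 67 genes were called in U87M2 on human arrays, or 34.3%, against 15.0% of all genes; a single list holds few genes, and its share is not read against that background. Of 13 MET adaptors and effectors on human arrays, 2 rose and 2 fell in U87M2. GAB2, the relative of GAB1, rose by 0.60 (limma adjusted p = 0.00156) and the kinase SRC fell by 0.59 (0.00173), as did the adaptor IRS1 by 0.62 (0.00293). The list's median was -0.11, against 0.02 over all genes. Of 18 coreceptors and regulators 1 rose and 4 fell (median -0.03): CD44, a hyaluronan receptor that can act as a MET coreceptor, fell by 0.87 (limma adjusted p = 1.68e-05). The ubiquitin ligases that take part in MET turnover moved apart, CBLB rising by 0.80 (0.000387) and CBL falling by 0.58 (0.000636). The 2 MET relatives MST1 and MST1R were not called.

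Among genes around the proteases, 1 of 8 other HGF-activating proteases rose (median 0.11), PLAT, tissue plasminogen activator, by 0.46 (limma adjusted p = 0.0160). Of 7 protease inhibitors 3 rose and 1 fell (median 0.31): SERPINE2, an inhibitor of urokinase and thrombin, fell by 1.29 (8.67e-06), and the metalloprotease inhibitors TIMP2 and TIMP3 rose by 0.71 (1.36e-05) and 0.82 (0.00143). Of 12 urokinase system partners 4 rose and 2 fell (median 0.26), with SRPX2, a secreted ligand of PLAUR, up by 1.41 (limma adjusted p = 1.61e-08), and the plasminogen receptors PLGRKT and S100A10 down by 0.65 (0.00296) and 0.47 (0.00607). Of 7 genes in the list of other matrix metalloproteases 2 rose and 1 fell (median 0.09): MMP13 rose by 1.11 (limma adjusted p = 0.000153), MMP1 fell by 1.09 (0.00500) and MMP16 rose by 0.52 (0.0460). Averaged over the lines, 10 of the 67 genes were called, or 14.9% against 11.6% of all genes, among them MMP13 (0.52, limma adjusted p = 0.000869), SRPX2 (0.30, 0.00330) and SERPINE2 (-0.41, 0.00343). On mouse arrays of U87M2 tumours 6 of 69 were called, or 8.7% against 3.72% of all genes: Gab2 (0.50, limma adjusted p = 0.00624) and Pik3r1 (0.43, 0.0421) of 16 adaptors, Timp2 (0.67, 0.0418) of 7 inhibitors, and Itgb3 (-0.45, 0.0144), Itgav (0.46, 0.0475) and Itgb5 (0.43, 0.0493) of 12 urokinase partners.

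**Figure D5:**
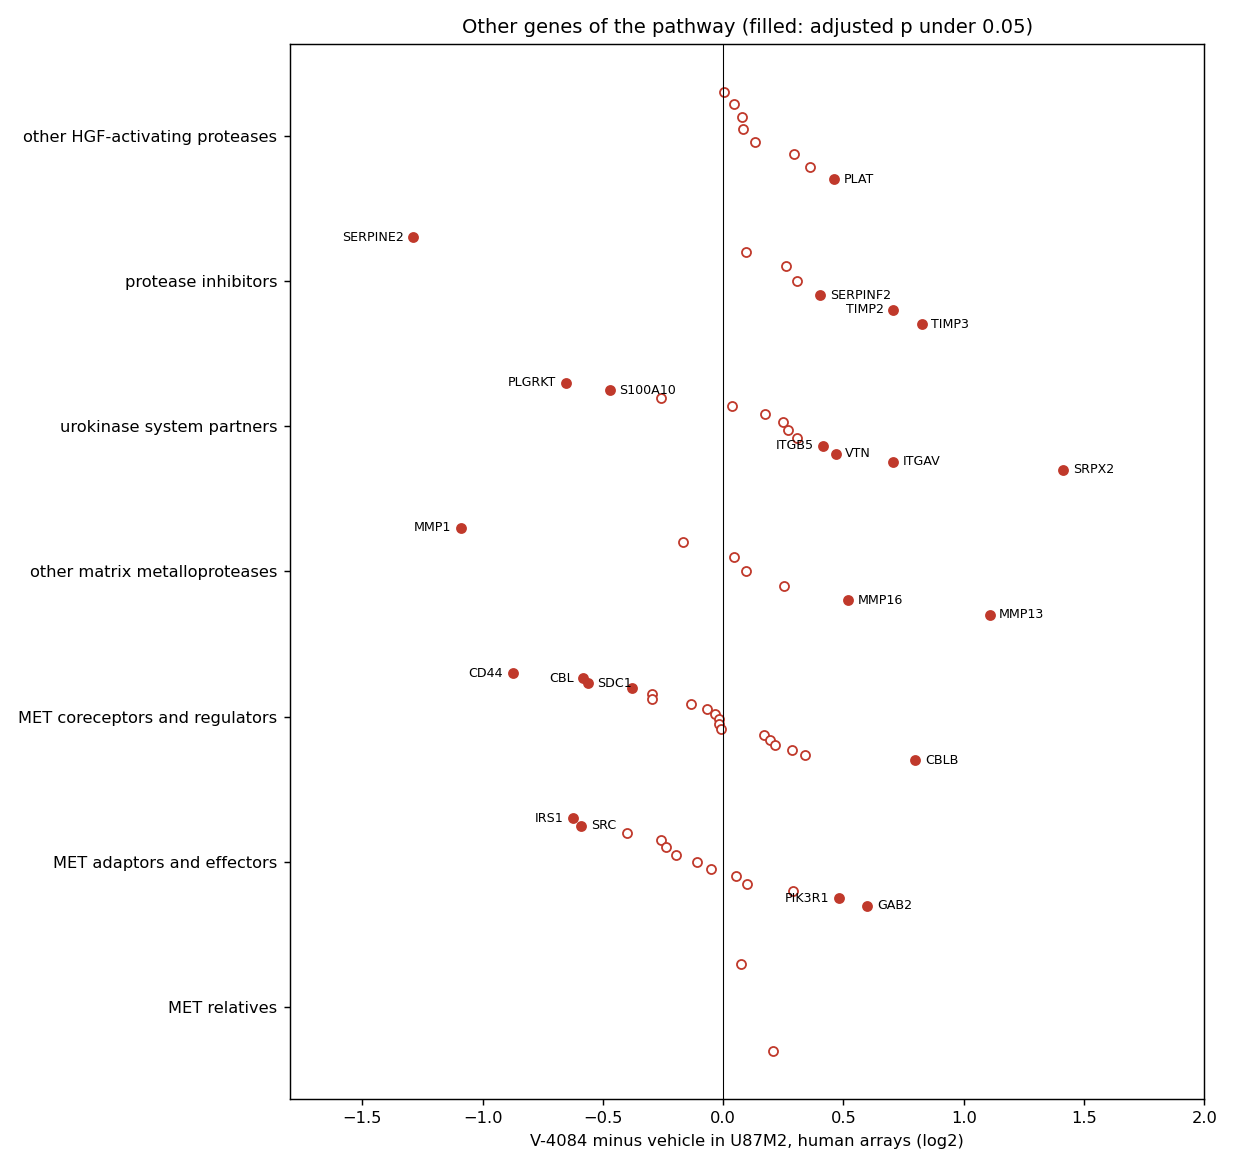
V-4084 minus vehicle in U87M2 on human arrays, in log2 units, for each measured gene of the 7 pathway lists; filled points have a limma adjusted p under 0.05 and those past 0.4 in size are named. SRPX2 lies farthest right at 1.41 and SERPINE2 farthest left at -1.29.

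Cell type markers moved in U87M2 alongside these genes. All 10 fibroblast markers, which include collagen and PDGF receptor genes that glioma lines also express, were higher with V-4084 on human arrays, with a median of 1.09, and their mean level ran from 9.12 to 9.52 with vehicle and from 10.38 to 10.40 with V-4084. Of 6 proliferation markers 5 fell there (median -0.98). Their medians were negative in the other lines too, at -0.72 in U118, where 2 were called lower. They were -0.45 in DBM2, -0.42 in SF295 and -0.25 in U251M2, with 0 called in each. On the average over lines, which includes U87M2, all 6 were called lower (median -0.56). With U87M2 left out, the average called 0 of all 18417 genes, so outside U87M2 the only calls are those in U118. Human macrophage markers had 1 of 10, CD68, above the platform median in U87M2 and keratinocyte markers none of 8. In U87M2 tumours on mouse arrays, 4 of 10 macrophage markers rose, with mean levels of 9.0 to 9.06 with vehicle and 9.07 to 9.61 with V-4084, 2 of 8 endothelial markers rose, 3 of 5 proliferation markers fell, and no fibroblast marker was called. The 8 muscle markers ran from 6.56 to 7.88 with vehicle and from 6.42 to 6.55 with V-4084, with none called. Their vehicle mean was highest in U118 tumours, at 9.34, against 7.23 in U251M2 to 7.90 in DBM2 among the other lines. With V-4084 the U118 mean was 7.50 (median difference -1.75), but its arrays were split, at 6.41, 9.83 and 6.25. There 0 were called, while 6 of 8 had an unadjusted limma p under 0.05, as did 1355 of all 19938 genes. DBM2 vehicle arrays also spread, from 6.41 to 9.53. Whether muscle content bears on the order of lines on mouse arrays was not tested. The part of these shifts in the members' values was not tested, and in such bulk RNA fewer cells of a type and less RNA per cell cannot be told apart.

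The genes whose 10 human group means followed HGF most closely, among 6449 genes spanning at least 1 log2 unit, were BET1L (Pearson r = 0.991), DNAAF11 (0.987), MAPRE2 (0.986), DOCK11 (0.981) and SLC9A9 (0.980). For MET they were APOL6 (0.982), IFRD1 (0.956), NPC1 (0.951), ACAA2 (0.946) and TMEM267 (0.946). These are descriptions over 10 points that share 5 lines.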

How the data were processed

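Human Gene 1.0 ST and Mouse Gene 1.0 ST arrays were read as the deposited log2 intensities, made with RMA and Partek per the submitters' processing notes; versions, settings and batches were not stated in the labels. The number of arrays limits precision. Probe sets naming 1 gene were kept, 19460 of 33297 human and 21789 of 35556 mouse; 1754 and 1621 named several genes and 12083 and 12146 none. For a gene with several, the brightest was used. limma 3.58.1 in R 4.3.3 fitted the 10 groups of each platform together (lmFit, eBayes, 18 residual degrees of freedom). P-values were Benjamini-Hochberg adjusted over all genes per comparison, and over genes and 10 pairs for pairs of lines; calls were made at 0.05. The fit was tested on simulated data. Same-numbered arrays were compared with 100000 permutations within groups. All 10 members are named, pathway genes by smallest p (at most 3 called per list), and 5 nearest genes for HGF and MET. Members, lists and the muscle comparison were chosen with earlier results of these data known. Alternatives covered scaling, probe sets, dim genes, variance model, array weights, pairing and arrays or lines left out.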

Additional observations from a re-analysis of the deposited data

Results flagged for a closer look

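The V-4084 effect differed between lines on human arrays for 4 members, by an F test of the differences themselves (limma, adjusted p = 0.00286 for MET, 0.00603 for PLAU, 0.000150 for PLAUR and 0.00128 for GAB1). In each case U87M2 set the contrast: its effect minus the mean of the other lines was -0.88 for MET, -0.91 for PLAU, -1.30 for PLAUR and 1.02 for GAB1 on the log2 scale. On mouse arrays Gab1 showed the same contrast at 0.51, although the F test over all lines did not call it (limma adjusted p = 0.0990). No group was large enough to be searched for outlying arrays.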

How the results depend on the processing

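Over the 32 single-gene results that were called, none reversed. Among the alternative values, 1131 kept their call and 44 lost it. Many alternatives left out 1 array of another line, which cannot change a within-line difference, only its SE and p. The tally is therefore not a measure of how firm those differences are. Of 148 uncalled single-gene results, 59 changed sign and 18 gained a call under at least 1 alternative. Calls summed over members and lines on human arrays, 5, were 12 (in 8 genes) with array weights, whose estimation stopped before convergence, and 4 to 8 with an array left out. The average over lines called 3, and 0 with U87M2 left out. In that setting it called 0 of all 18417 genes, against 2138 with U87M2 included, so the loss is not particular to the members. The differences in effect called 4, 7 with array weights and 0 without U87M2. On mouse arrays the same sum, 2, was 1 to 3 with an array left out, and differences in effect, 0, were 1 with array weights and 0 to 1 with an array left out. Repeat numbers were not taken to pair the arrays, since correlations of same-numbered deviations ran from -0.52 to 0.32 (0.22, 0.012 and 0.32 in U87M2 on human arrays); with the replicate block the average call of MMP14 was lost (0.22, limma adjusted p = 0.0678), and the calls summed over lines numbered 5 on human and 3 on mouse arrays. Genes called in U87M2 over the whole human table numbered 2760, 6779 with array weights, 4816 without the 3 narrow-range arrays, 1750 without U87M2 vehicle repeat 3 and 1842 without U87M2 V-4084 repeat 1; on mouse arrays they numbered 741, 1224 with array weights and 372 to 413 without U87M2 V-4084 repeat 1 or 2 or vehicle repeat 1 or 3. Vehicle means of HGFAC, ST14 and SPINT2 lay below the median of all human genes, where a small change may not be measurable. So did those of SPINT1 in every line but DBM2, and of HGF in DBM2 and U251M2. The same limit holds for mouse Hgfac, and for mouse Met in DBM2 and U251M2, below the median of all mouse genes. Mouse St14 in SF295, DBM2 and U251M2 and mouse Spint2 in SF295 also lay below it under vehicle.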
